A study of Homo sapiens with 8 samples.

Results

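The 8 genes described here encode subunits of the GABA-A receptor: GABRA2, GABRA3 and GABRA5 (alpha class), GABRB1 and GABRB2 (beta class), GABRG1 and GABRG3 (gamma class), and GABRQ (theta). They were taken by symbol from the 60659 genes of the count table, and the other 11 GABA-A subunit genes (rho subunits included) serve as comparison. The receptor is a ring of subunits around a chloride pore that opens when GABA, the main inhibitory transmitter of the adult brain, binds between alpha and beta subunits. The alpha class shapes where receptors sit and which drugs bind them, the gamma class forms the benzodiazepine site together with alpha and anchors receptors at synapses, and theta, epsilon, pi and delta can take the place of gamma. In immature neurons, where chloride inside the cell is high, the same channel depolarizes the cell.

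SK-N-SH is a line of human neuroblastoma cells, and its rRNA-depleted RNA was sequenced in 4 groups, each with 2 libraries that the labels name biological replicates. All 8 libraries came from cells in differentiation medium with 10 μM all-trans retinoic acid (ATRA) for 24 h, so no group shows the cells without ATRA. In the first experiment, parental cells were compared with cells that overexpressed (OE) FLAG-tagged ZMYND8, a chromatin reader, and both received doxycycline (Dox). In the second, ZMYND8 knockdown (KD) cells were compared with KD control cells, and the labels name no Dox for either. According to the methods, the OE cells carried a Dox-inducible lentiviral construct and were selected with G418. The parental cells are thus controls for Dox but, as labelled, carry no vector. Whether the OE cells are 1 clone, and which hairpin or construct the KD libraries used, is not given in the sources used here.

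Each library held between 38316523 and 56256979 counts. ZMYND8 itself had 3089 and 3612 counts in parental cells against 220691 and 182849 in OE cells. In the KD experiment it had 3128 and 3374 counts in the controls and 1641 and 1640 after knockdown, a log2 fold change of -0.94. Markers of the adrenergic state of neuroblastoma cells (11 genes, among them HAND2 and DBH) summed to 346 to 348 CPM (counts scaled to library size) in parental libraries, 1370 to 1453 in OE, 1055 to 1129 in KD control and 850 to 980 in KD libraries. TH, a defining marker of that list, was at 0 in 5 of the 8 libraries. Of 10 tested in OE against parental, 7 were called higher and 0 lower, beside 18.6% of all genes called. By adjusted p, 0 were higher and 4 lower in KD against KD control (2653 and 2146 of all 19789 genes). In KD control against parental 9 were higher and 0 lower (6855 and 7389 of all 20385 genes). CHGA was higher in KD (2.98 and 2.80 CPM) than in KD control libraries (0.51 and 2.44 CPM), where the sum fell. Mesenchymal markers (12 genes, such as VIM and FN1) summed to 13743 to 14585 CPM in parental, 4910 to 5027 in OE, 7166 to 7265 in KD control and 8419 to 8878 in KD libraries. No library was at 0 for any of them. In OE against parental 7 of the 12 were called lower and 1, TWIST1, higher, beside 18.6% of all genes called. By adjusted p, 7 were higher and 2 lower in KD against KD control (2653 and 2146 of all 19789 genes). In KD control against parental 4 were higher and 8 lower (6855 and 7389 of all 20385 genes). PRRX1 fell in KD, from 129.4 and 129.2 to 66.3 and 64.6 CPM, where the sum rose. Schwann-like markers (5 genes) summed to 2.3 and 2.4 CPM in parental, 8.5 and 9.0 in OE, 3.5 and 3.3 in KD control and 3.5 and 3.8 in KD libraries. Of 4 tested, 2 were called higher in OE cells, beside 11.8% of all genes tested. SOX10 was at 0 in 6 of the 8 libraries. These levels moved with the groups, and their part in the results that follow was not tested. In such bulk samples, fewer cells of a type and less RNA per cell cannot be told apart.

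The 8 genes lie in 4 of the gene clusters in which most GABA-A subunits are arranged. The cluster at 4p12 holds GABRG1 (chr4:46035769-46124054, minus strand), GABRA2 (chr4:46243548-46475230, minus strand) and GABRB1 (chr4:46993723-47426447, plus strand), together with GABRA4. GABRB2 (chr5:161288429-161549044, minus strand) opens the cluster at 5q34, which also holds GABRA6. GABRA5 (chr15:26866911-26949208, plus strand) and GABRG3 (chr15:26971181-27541984, plus strand) lie at 15q12, 21972 bases apart. At Xq28, GABRA3 (chrX:152166234-152451315, minus strand) and GABRQ (chrX:152637895-152657542, plus strand) follow GABRE. Coordinates are those of the count table, on GRCh38.

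Promoters of the members that were called higher under ZMYND8 OE are shown first. Counts per gene do not tell which start site was in use. RefSeq windows from 250 bases before to 50 bases after a start (GRCh38.p14) were matched for 6 of the 8 genes, as 8 windows. Capitals mark CAGCTG, an E-box of the kind bound by basic helix-loop-helix factors. It reads the same on both strands.

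GABRG1 (chr4:46124005-46124304, minus strand): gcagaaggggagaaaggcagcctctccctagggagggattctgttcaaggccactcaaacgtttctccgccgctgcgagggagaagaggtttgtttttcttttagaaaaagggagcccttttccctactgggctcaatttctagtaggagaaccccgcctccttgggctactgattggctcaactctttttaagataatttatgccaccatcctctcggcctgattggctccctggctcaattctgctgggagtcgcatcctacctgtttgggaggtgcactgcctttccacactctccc
GABRA2 (chr4:46389360-46389659, minus strand, the middle one of its 3 starts): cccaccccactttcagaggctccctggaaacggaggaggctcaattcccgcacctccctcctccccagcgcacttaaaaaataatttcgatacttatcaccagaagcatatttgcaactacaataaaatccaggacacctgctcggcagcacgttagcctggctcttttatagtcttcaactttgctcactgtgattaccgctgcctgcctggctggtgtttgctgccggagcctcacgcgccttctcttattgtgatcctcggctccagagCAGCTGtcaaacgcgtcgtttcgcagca
GABRB2 (chr5:161546676-161546975, minus strand): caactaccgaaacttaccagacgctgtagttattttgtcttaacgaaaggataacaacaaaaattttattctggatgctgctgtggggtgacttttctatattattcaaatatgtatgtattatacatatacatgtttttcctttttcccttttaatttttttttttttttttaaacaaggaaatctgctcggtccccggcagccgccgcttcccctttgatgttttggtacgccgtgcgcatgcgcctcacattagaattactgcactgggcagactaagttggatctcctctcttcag
GABRG3 (chr15:26970931-26971230, plus strand): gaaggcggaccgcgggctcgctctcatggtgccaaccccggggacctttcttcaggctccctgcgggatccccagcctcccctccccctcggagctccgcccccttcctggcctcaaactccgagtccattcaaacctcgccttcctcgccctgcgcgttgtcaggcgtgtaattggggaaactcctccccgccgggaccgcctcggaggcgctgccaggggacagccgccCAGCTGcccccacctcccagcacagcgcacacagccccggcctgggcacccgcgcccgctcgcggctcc
GABRQ (chrX:152637645-152637944, plus strand): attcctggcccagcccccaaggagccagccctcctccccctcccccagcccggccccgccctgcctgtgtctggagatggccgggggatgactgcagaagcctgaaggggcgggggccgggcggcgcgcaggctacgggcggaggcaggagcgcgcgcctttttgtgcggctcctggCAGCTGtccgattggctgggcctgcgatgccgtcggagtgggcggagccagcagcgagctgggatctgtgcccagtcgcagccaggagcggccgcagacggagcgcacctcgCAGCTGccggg

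The windows of GABRG3 and GABRQ were GC-rich (71.7% and 73.7% G or C) and held 27 CpG each. Of the 3 windows of GABRA2, the printed one held 15 CpG at 52.7% G or C. The window at chr4:46390251-46390550 held 30 CpG at 71.3% and no CAGCTG. The one at chr4:46388986-46389285 held 9 CpG at 51.7%, with CAGCTG. The window of GABRB2 was AT-rich (39.0% G or C, 11 CpG), and that of GABRG1 held 7 CpG, where the median of all 35116 windows was 14. CAGCTG stood in 4 of the 8 member windows (17.95% of all windows), 2 of them alternative starts of GABRA2, and GABRQ had it at 2 places. AGGTCA, the half-site of retinoid receptors, was searched on both strands and stood in 0 of the 8 windows (13.83% of all windows). CCAAT was found in 4 of the 8 windows (34.61% of all windows) and GGGCGG in 3 (44.95% of all windows), both searched on both strands. These matches describe the windows alone, since no binding data were used.

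ZMYND8 OE was compared with parental cells to ask which subunit genes responded to more ZMYND8 under ATRA. The set of subunits with any signal widened. In parental cells 4 of the 8 genes had no count in either library, and in OE cells all 8 had more than 3 counts in both. How many of all genes did the same was not counted. At another threshold, summed counts above 20 over both libraries, 18869 genes were detected in parental and 20446 in OE cells. GABRG1, GABRA2, GABRB2, GABRG3 and GABRQ were called higher, and GABRA3, the most abundant of them, was not called in either direction. To be called, a gene needed a mean normalized count above 20, a log2 fold change of 1 or more in size, and an adjusted p below 0.05. Of all 20835 genes tested, 18.6% were called in either direction and 11.8% were called higher, against 5 of these 8 genes. GABRG1, GABRA2, GABRB2 and GABRG3 passed the filter on low counts only through the OE libraries.

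GABRG1, which encodes a gamma subunit known from the amygdala, brainstem and glia, had 284 and 230 counts in OE libraries and 0 in either parental library. The groups did not overlap. It was at least 81.7-fold higher in OE cells, a bound computed against 3 counts per library, at an adjusted p of 3.66e-08 (edgeR's quasi-likelihood test, Benjamini-Hochberg). The KD control libraries had 0 counts as well, and the KD libraries 1 and 0.

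GABRA2, its neighbour 119493 bases away on the same strand, encodes an alpha subunit of many forebrain synapses that is concerned with the anxiety-relieving effect of benzodiazepines. It had 0 counts in all 6 libraries without OE and 205 and 159 in the OE libraries, at least 57.7-fold higher than in parental cells (edgeR adjusted p = 1.09e-07). Of its exonic bases, 3.95% are shared with a gene annotated on the same strand and 0.85% with one on the opposite strand.

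GABRB2, a beta subunit that is widespread in the adult brain, had 207 and 131 counts in OE libraries and 0 in either parental library. It was at least 53.0-fold higher (edgeR adjusted p = 2.88e-07), and its level in the OE libraries was the most uneven of the called genes, at 3.85 and 2.98 CPM. In the KD experiment it had 0 counts in the controls and 2 and 0 after knockdown.

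GABRG3 encodes a gamma subunit of low abundance in brain. Its counts were 153 and 150 in OE libraries and 0 in either parental library, at least 48.6-fold higher (edgeR adjusted p = 2.65e-07). Unlike GABRG1, GABRA2 and GABRB2, it was also counted in the KD experiment, at 11 and 9 in the controls and 8 and 12 after knockdown. An annotated gene on the opposite strand shares 8.61% of its exonic bases, and the counting is not stated to use strand.

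GABRQ, the theta subunit, which is found in monoaminergic nuclei such as the locus coeruleus, was the one called gene already present in parental cells. Its counts were 45 and 37 there and 326 and 238 in the OE libraries, with no overlap. The log2 fold change was 2.72 (SE 0.201, edgeR adjusted p = 8.37e-07), and its normalized level rose from 0.888 ± 0.243 to 5.73 ± 0.461 CPM (mean ± SD, n = 2).

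**Figure D1:**
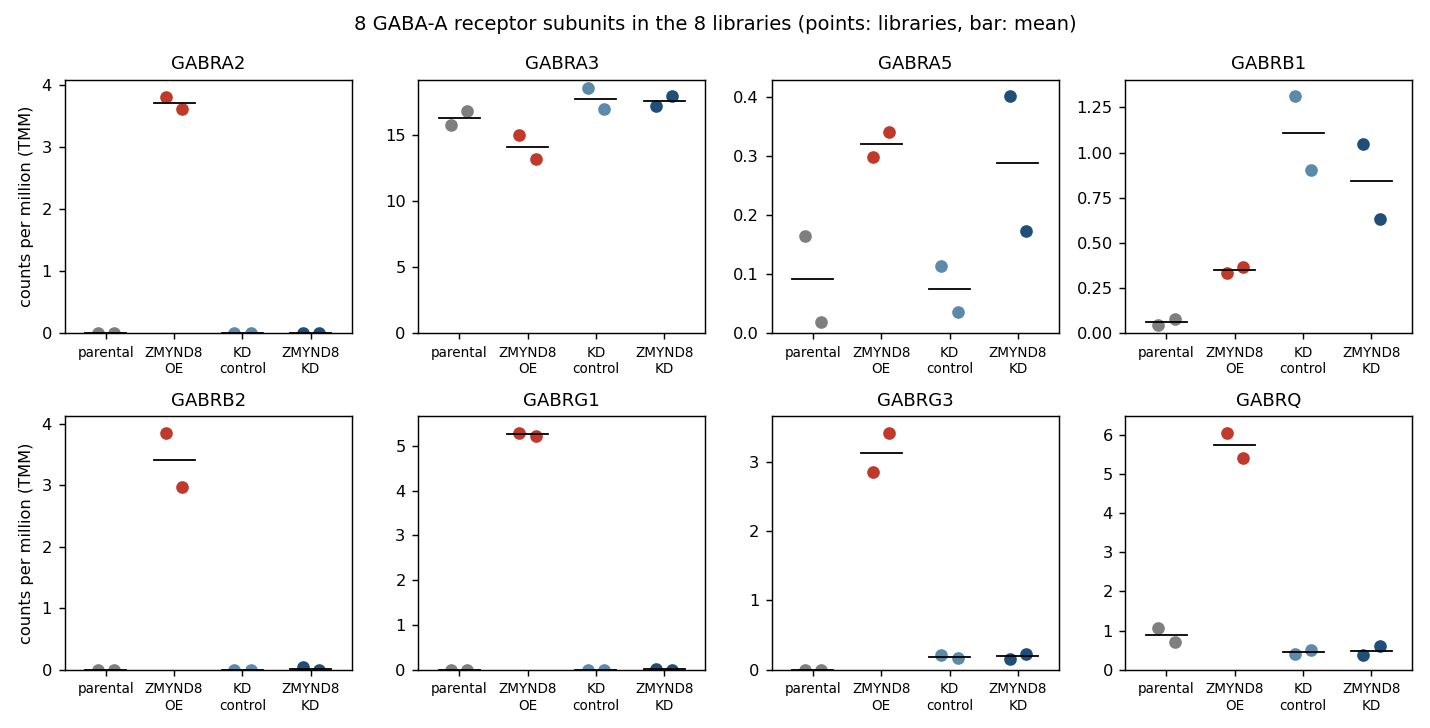
CPM (TMM-normalized) of the 8 GABA-A subunit genes in the 8 libraries, 1 panel per gene with its own axis from 0. Points are libraries and bars are means of 2. GABRA2, GABRB2 and GABRG1 stand above 0.0382 CPM only in the OE libraries, GABRA3 lies between 13.2 and 18.6 CPM in all 8 libraries, and GABRB1 is highest in the KD experiment.

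The other 3 genes were not called, for different reasons. GABRB1, a beta subunit, had 2 and 4 counts in parental libraries and 18 and 16 in OE libraries, with no overlap and a log2 fold change of 2.41 (SE 0.552, edgeR adjusted p = 0.00321). Its mean normalized count of 9.89 lay under the threshold of 20. With DESeq2 its adjusted p was 0.0646.

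GABRA5, an alpha subunit of extrasynaptic receptors in the hippocampus, had 7 and 1 counts in parental libraries and 16 and 15 in OE libraries. Its log2 fold change of 1.87 (SE 0.674, edgeR adjusted p = 0.034) rested in part on the low second parental library. Without that library it was 0.94 and past the fold threshold no longer. Under the alternative settings it ran from 0.94 to 3.87, and it did not pass the adjusted p in all of them. Its mean normalized count was 9.88.

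GABRA3, an alpha subunit typical of monoaminergic neurons and of the developing brain, had 671 and 869 counts in parental libraries and 806 and 582 in OE libraries. Normalized, these were 15.8 and 16.8 CPM in parental and 14.98 and 13.2 CPM in OE libraries. The OE libraries were the lower ones without overlap, yet the log2 fold change was small, -0.20 (SE 0.0908, edgeR adjusted p = 0.0819). Without the first OE library it was -0.29 (adjusted p = 0.0218). By edgeR adjusted p alone, 7 of the 8 genes were higher and 0 were lower (5 were past it with DESeq2, where GABRB1 and GABRA5 were not), where 31.7% of all genes tested were higher and 29.1% lower. The median log2 fold change of the 8 genes was 4.16 with those at 0 in parental cells set to their bound, beside 0.03 for all genes tested, and it describes genes that in part passed the filter through OE alone.

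**Figure D2:**
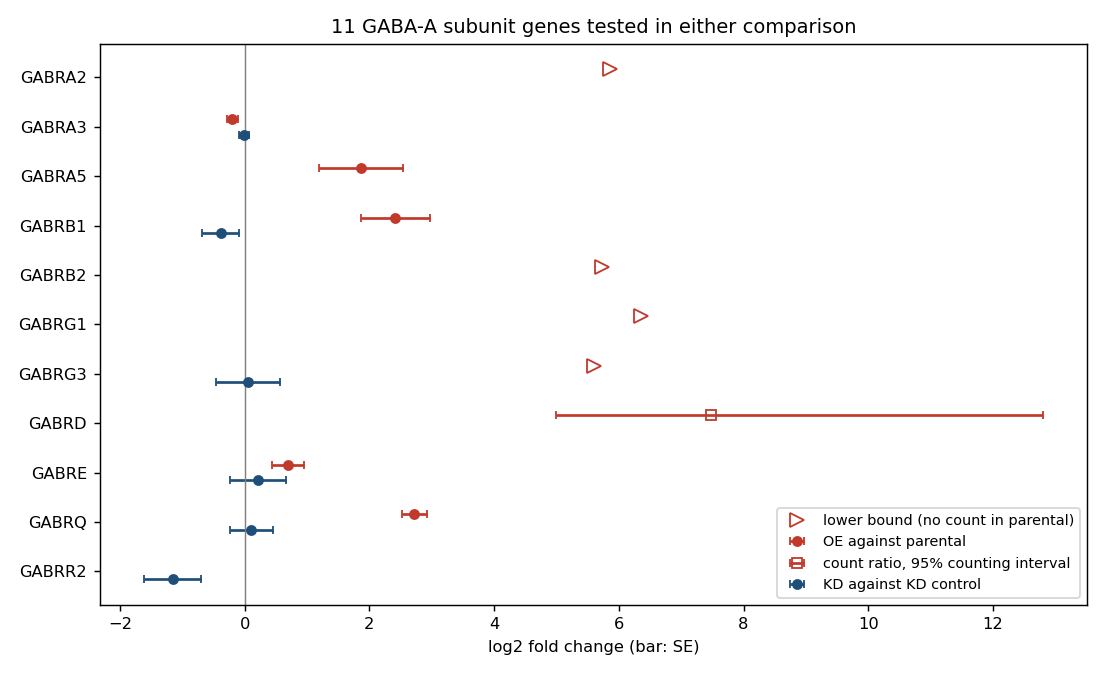
Log2 fold changes of 11 GABA-A subunit genes tested in OE against parental (red) or KD against KD control (blue). Filled points have their SE as bars, triangles are lower bounds for genes without a count in parental cells, and the square is a ratio of counts with its 95% counting interval. The red points lie at or right of 0.70 with the exception of GABRA3 at -0.20, and the blue points lie between -1.15 and 0.21.

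Other subunit genes give the setting. GABRD, the delta subunit of extrasynaptic receptors, had 1 and 0 counts in parental and 94 and 92 in OE libraries, a ratio of 179 with a 95% counting interval of 31.7 to 7110, and was called higher (edgeR adjusted p = 9.18e-07). GABRE, which lies beside GABRA3, passed the adjusted p but not the fold threshold (log2 fold change 0.70, edgeR adjusted p = 0.0391). GABRA4, GABRA6, GABRP and the 3 rho genes had at most 12 counts in every parental and OE library and were not tested.

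Levels were compared between genes per length, in TPM, which scales counts by the summed exon length of a gene and by the library. All 19 subunit genes together had 15.9 and 17.3 TPM in parental, 50.2 and 53.0 in OE, 28.5 and 29.8 in KD control and 23.9 and 24.4 in KD libraries. GABRA3 was steady throughout, between 12.8 and 15.3 TPM in each library. Its share of the subunit mRNA was therefore 87.6% ± 1.5 in parental cells, 48.0% ± 2.6 in KD control, 53.1% ± 0.3 in KD and 27.1% ± 2.1 in OE cells (mean ± SD, n = 2).

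Within the alpha class, GABRA3 made up 98.7% and 99.9% in parental libraries and still 90.1% and 88.7% in OE libraries. GABRA2, at 0.897 and 0.909 TPM, took 5.8% ± 0.2 of the alpha class in OE cells, and GABRA5 took 2.06% and 2.63%. Of the gamma genes, GABRG1 stood at 3.11 and 3.29 TPM in OE libraries, above GABRG3 at 0.892 and 1.14 TPM.

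GABRQ, at 3.73 and 3.55 TPM, was close to GABRG1 in the OE libraries. Among the 8 genes, these followed GABRA3 in abundance there. GABRB2 (0.893 and 0.738 TPM) stood above GABRB1 (0.451 and 0.523 TPM) in both OE libraries. The levels of GABRA2, GABRG3 and GABRB2 in OE cells, with means of 0.903, 1.02 and 0.816 TPM, did not differ from each other beyond the spread of the libraries. Subunit genes with more than 3 counts numbered 6 and 7 in parental, 9 in each library of the KD experiment, and 15 and 16 in OE libraries. The like numbers over all genes were not counted.

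**Figure D3:**
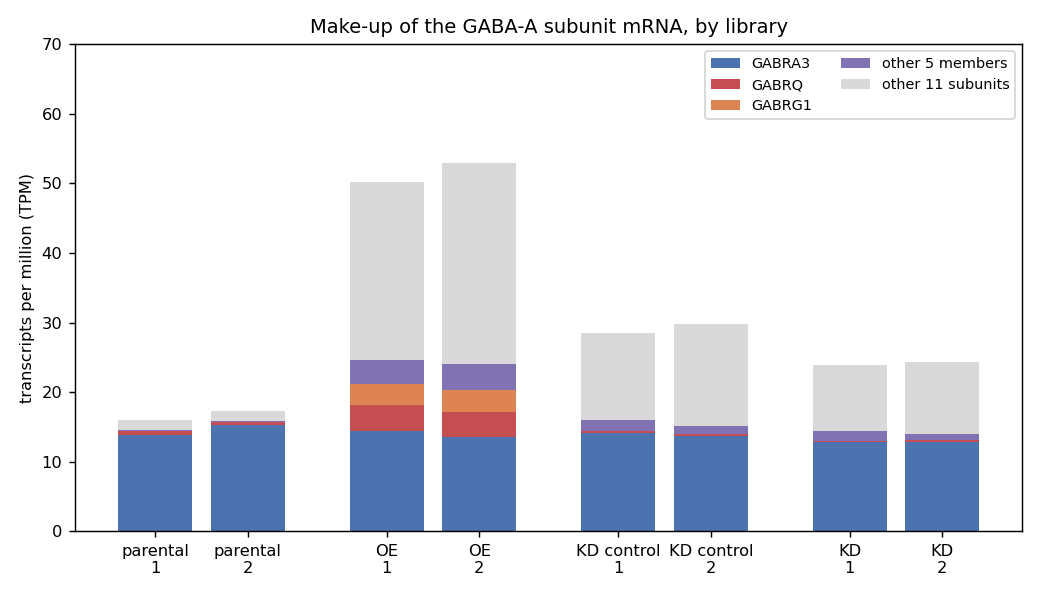
Stacked TPM of the GABA-A subunit genes in each library, with GABRA3, GABRQ and GABRG1 shown singly, and the other 5 genes described here and the other 11 subunit genes each summed. The GABRA3 segment keeps its height (12.8 to 15.3 TPM), while the whole bar is 15.9 and 17.3 TPM in parental and 50.2 and 53.0 TPM in OE libraries.

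ZMYND8 KD was compared with its own controls to ask whether less ZMYND8 moved the same genes the other way. At this depth 4 of the 8 genes could be tested, since GABRA2, GABRB2, GABRG1 and GABRA5 had too few counts to pass the filter. No gene of the 4 was called, against 1.96% of all 19789 genes tested. With edgeR's quasi-likelihood test 0 of the 4 had an unadjusted p under 0.05, and with DESeq2 also 0.

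GABRA3 had 975 and 938 counts in KD control and 902 and 935 in KD libraries, a log2 fold change of -0.01 (SE 0.0807, edgeR adjusted p = 0.947). GABRB1 had 69 and 50 counts in KD control and 55 and 33 in KD libraries, which overlapped, with a log2 fold change of -0.39 (SE 0.296, edgeR adjusted p = 0.387). For GABRQ, with 21 and 28 counts in KD control and 20 and 31 in KD libraries, the log2 fold change was 0.11 (SE 0.343, edgeR adjusted p = 0.86). GABRG3 had the widest error of the 4, at 0.05 (SE 0.514, edgeR adjusted p = 0.962). Its mean normalized count of 10.02 was under the threshold, so that it could not be called whatever its change.

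GABRA5 had 6 and 2 counts in KD control and 21 and 9 in KD libraries, without overlap. Fitted without the filter on low counts, its log2 fold change was 1.92 (SE 0.697) at an edgeR adjusted p of 0.18. GABRR2, a rho subunit, had 23 and 21 counts in KD control and 13 and 6 in KD libraries (log2 fold change -1.15, edgeR adjusted p = 0.0937).

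The test of the difference between the OE and KD effects over all 8 libraries, which contains the libraries of both comparisons, was fitted for all 8 genes. GABRA2, GABRB2 and GABRG1, with at most 2 counts in each library of the KD experiment, gave no usable estimate there (adjusted p of 1). The difference was called for 3 of the 8 genes, GABRB1, GABRG3 and GABRQ, where 18.8% of all 22619 genes tested were called. GABRB1, under the mean threshold in OE against parental (9.89), passed it here through the KD experiment (51.76 in KD against KD control). For GABRQ it was 2.60 (SE 0.394, edgeR adjusted p = 6.13e-05) and for GABRB1 2.80 (SE 0.64, adjusted p = 0.00206) on the log2 scale. For GABRG3 the adjusted p was 7.81e-07, with no size given because the parental libraries were at 0. The difference was -0.19 for GABRA3 (SE 0.123, adjusted p = 0.213) and -0.06 for GABRA5 (adjusted p = 0.984).

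The controls of the 2 experiments differed in several of these genes. They differ in Dox and in whatever else separates the experiments, so that these causes cannot be told apart, and both control groups also serve in the comparisons above. Of 20385 genes tested, 21.6% were called, and of the 8 genes 3 were tested and 1 was called. GABRB1 had 69 and 50 counts in KD control libraries and 2 and 4 in parental libraries, a log2 fold change of 4.08 (SE 0.438, edgeR adjusted p = 1e-05). Per length this was 1.41 and 1.03 TPM against 0.0578 and 0.0991 TPM. The KD control level was thus above that of the OE libraries too, at 0.451 and 0.523 TPM. Without the first KD control library 0 of the genes were called, and without the second, or without the second parental library, 2 were.

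GABRQ moved the other way, with a log2 fold change of -0.94 (SE 0.308, edgeR adjusted p = 0.0182), which passed the adjusted p but not the fold threshold. Under the alternative settings it ran from -1.21 to -0.66, and it did not pass the adjusted p in all of them. GABRA3 differed by 0.13 (SE 0.0823, adjusted p = 0.184). GABRG3, not tested here for its low counts, was at least 2.9-fold higher in KD control libraries. The adrenergic marker sum also stood higher in KD control than in parental libraries.

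The order of the groups, by CPM, differed from gene to gene. For GABRA2, GABRG1 and GABRB2 OE cells stood alone, and the other 3 groups were at 0 to 2 counts per library. GABRG3 was highest in OE cells, followed by the KD experiment, where KD and KD control overlapped, and by parental cells at 0. For GABRQ the order was OE, parental, then KD and KD control, and these last overlapped. For GABRB1 it was KD control and KD, which overlapped, then OE, then parental cells. On the CPM scale GABRA3 stood in KD control and KD libraries, which overlapped, slightly above parental and then OE libraries, whereas in TPM its KD libraries (12.8 and 12.9) were the lowest. GABRA5 was highest in OE and KD libraries, which overlapped, as did parental and KD control libraries.

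Neighbouring genes were counted to describe the surroundings of the clusters. Within 1 Mb of the 4 clusters lie 176 other genes, of which 56 were tested in OE against parental, with 3 called higher and 5 called lower, beside 18.6% of all genes called. By adjusted p alone 12 of the 56 were higher and 22 lower, beside 31.7% and 29.1% of all genes. At 4p12, where GABRG1 and GABRA2 rose, 0 of 13 tested neighbours were called higher and CORIN, a protease gene, was called lower (log2 fold change -1.74, edgeR adjusted p = 9.91e-06). By adjusted p alone, 1 of the 13 was higher and 7 were lower. At 5q34, beside GABRB2, 0 of 5 neighbours were called. ATP10B there had 0 counts in the 6 libraries without OE and 11 and 13 in OE libraries, at least 3.9-fold higher (edgeR adjusted p = 0.00155), and was not called because of its low mean. At 15q12, beside GABRG3, ATP10A, a phospholipid flippase gene, fell by 3.58 on the log2 scale (edgeR adjusted p = 3.46e-07). OCA2, the gene downstream of GABRG3, had 2 and 1 counts in parental and 36 and 32 in OE libraries, a ratio of 21.8 with a 95% counting interval of 7.16 to 108, and its mean lay under the threshold.

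At Xq28 ATP2B3, a neuronal calcium pump gene (log2 fold change 2.74), PNMA3 (5.19) and DUSP9 (2.71) were called higher, at edgeR adjusted p of 3.03e-08, 1.11e-06 and 3.11e-05. BGN, a matrix proteoglycan gene, was called lower (-1.82), as were MAGEA2B and ENSG00000231937. GPR50 had 0 counts in the 6 libraries without OE and 28 and 24 in OE libraries, at least 8.3-fold higher (edgeR adjusted p = 8.06e-05), with a mean under the threshold. PASD1 had 0 and 1 counts in parental and 24 and 9 in OE libraries, a ratio of 31.8 with a 95% counting interval of 5.32 to 1290, also with a low mean. MAGEA2B has near-identical copies, so that its counts are uncertain. GABRA3 and GABRE, in the same cluster as GABRQ, were not called.

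**Figure D4:**
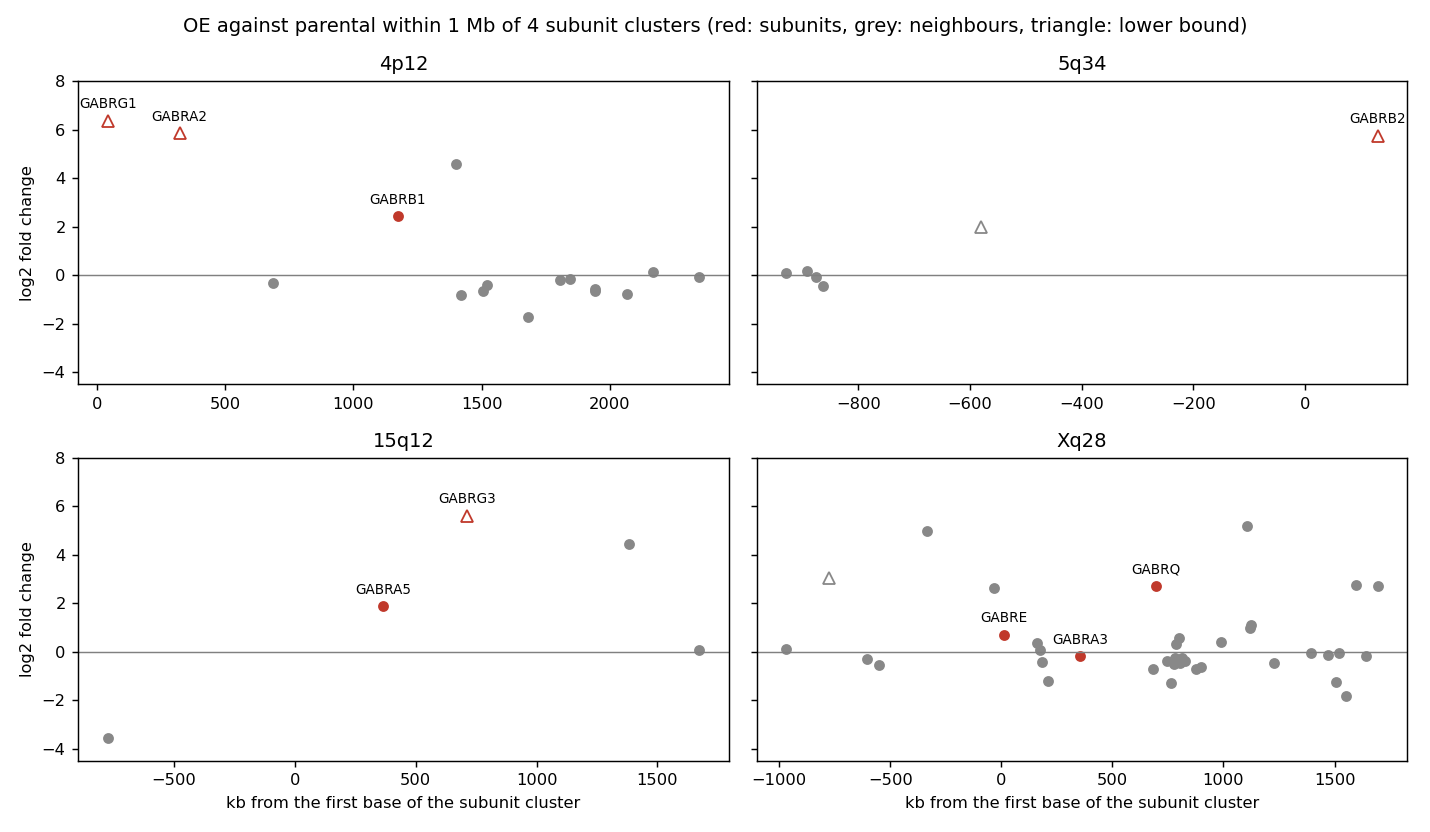
Log2 fold change of OE against parental for the subunits named in the text and all tested neighbours within 1 Mb of the 4 subunit clusters, by distance in kb of the gene's middle from the first base of the cluster (points, or triangles for lower bounds computed against 3 counts per library). Genes with 1 to 3 counts in parental cells, such as OCA2 and PASD1, are points at the log2 of their ratio of counts. At 4p12, 5q34 and 15q12 the subunits (red) lie at 1.87 or above while most neighbours (grey) lie near or below 0, and at Xq28 GABRA3 at -0.20 lies beside GABRQ at 2.72.

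Directly downstream of GABRB1, 5512 bases from its end and on the same strand, lies the lncRNA gene ENSG00000260918 (chr4:47431960-47438959), which was singled out after its values were seen. It had 1 and 1 counts in parental, 32 and 18 in OE, 103 and 100 in KD control and 33 and 25 in KD libraries. Its groups stood in the same order as those of GABRB1 at the top and bottom, highest in KD control and lowest in parental cells. In KD against KD control it was called lower (log2 fold change -1.75, SE 0.232, edgeR adjusted p = 0.000377), where GABRB1 was not called.

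Genes that make, store and clear GABA were described next, as the pathway around the receptor. Of 9 genes 8 were tested in OE against parental, 5 were called higher and 0 lower. Over all genes tested, 11.8% were called higher in this comparison and 18.6% in either direction. GAD2, a GABA-synthesizing enzyme of nerve terminals, had 0 counts in all 6 libraries without OE and 82 and 50 in OE libraries, at least 20.7-fold higher than in parental cells (edgeR adjusted p = 4.77e-06). SLC32A1, the vesicular GABA transporter, also had 0 counts in those 6 libraries and 62 and 105 in OE libraries, at least 27.5-fold higher. Both entered the test only through the OE libraries. SLC6A11, a GABA uptake transporter, was called higher (log2 fold change 4.47), as were SLC6A12 (2.84), a betaine and GABA transporter, and ABAT (3.07), which breaks GABA down. GAD1 passed the adjusted p with a log2 fold change of 2.04, but its mean normalized count of 19.7 was just under the threshold. In KD against KD control 6 of the 9 were tested and 0 called, where 1.96% of all genes tested were called. Of the 6, 0 had an adjusted p below 0.05, where 2653 of all 19789 genes were higher by it and 2146 lower.

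Of 5 genes of the GABA-B receptor, a G protein-coupled receptor for the same transmitter, 4 were tested. In OE cells 3 were called higher, beside 11.8% of all genes tested. GABBR2, the subunit that couples to the G protein, rose by 3.95 on the log2 scale from 5 and 4 to 62 and 83 counts (edgeR adjusted p = 1.54e-05). GABBR1, its obligate partner, was listed at 0 in all parental and OE libraries, but 100% of its exonic 31-base sequences also occur on alternate contigs of GRCh38, so that this 0 says nothing about its level where reads with several matches were not counted. The auxiliary subunits KCTD12 (1.15) and KCTD16 (1.85) were also called higher. In KD against KD control these were the 2 genes tested, and both passed the adjusted p in the same direction as under OE, at 0.37 and 0.75 (edgeR adjusted p = 0.000866 and 0.00544), under the fold threshold. By adjusted p, 2653 of all 19789 genes tested there were higher.

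Among 22 genes of receptor assembly, clustering and trafficking, all were tested, 7 were called higher and 1 lower, with a median log2 fold change of 0.36. Over all genes tested, 11.8% were called higher and 18.6% in either direction, with a median of 0.03. LHFPL4, which links GABA-A receptors to neuroligin at inhibitory synapses, rose by 3.87 (SE 0.109, edgeR adjusted p = 5.87e-10), and SHISA7, an auxiliary subunit, by 5.16 (SE 0.289, adjusted p = 9.1e-08). IQSEC3 (4.54), HAP1 (2.27) and the kinesins KIF5A (1.27) and KIF5C (2.27) were also called higher. GPHN, the gephyrin scaffold, passed the adjusted p at 0.56 but not the fold threshold. PLCL1, a binding partner of the receptor and of its phosphatases, fell by 1.21 (adjusted p = 2.06e-08). In KD cells 21 of the 22 were tested and 1 was called, beside 1.96% of all genes tested. It was ARFGEF2, a trafficking factor that fell by 1.03 (edgeR adjusted p = 5.37e-07).

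Of 11 genes that set the chloride gradient, 9 were tested in OE cells, 2 called higher and 1 lower. Over all genes tested, 18.6% were called in either direction. SLC12A5, the neuronal chloride exporter KCC2, had 57 and 63 counts in parental and 338 and 282 in OE libraries, a log2 fold change of 2.32 (SE 0.154, edgeR adjusted p = 3.54e-07). SLC12A2, the chloride importer NKCC1, had a log2 fold change of -0.51 (adjusted p = 7.92e-06), under the fold threshold. The kinase genes WNK2 (4.23) and STK39 (-1.30), which control these transporters, were called in opposite directions. In KD cells 9 of the 11 were tested and 0 were called, beside 1.96% of all genes tested. By adjusted p 1 of the 9 was lower, where 2146 of all 19789 genes were lower and 2653 higher.

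**Figure D5:**
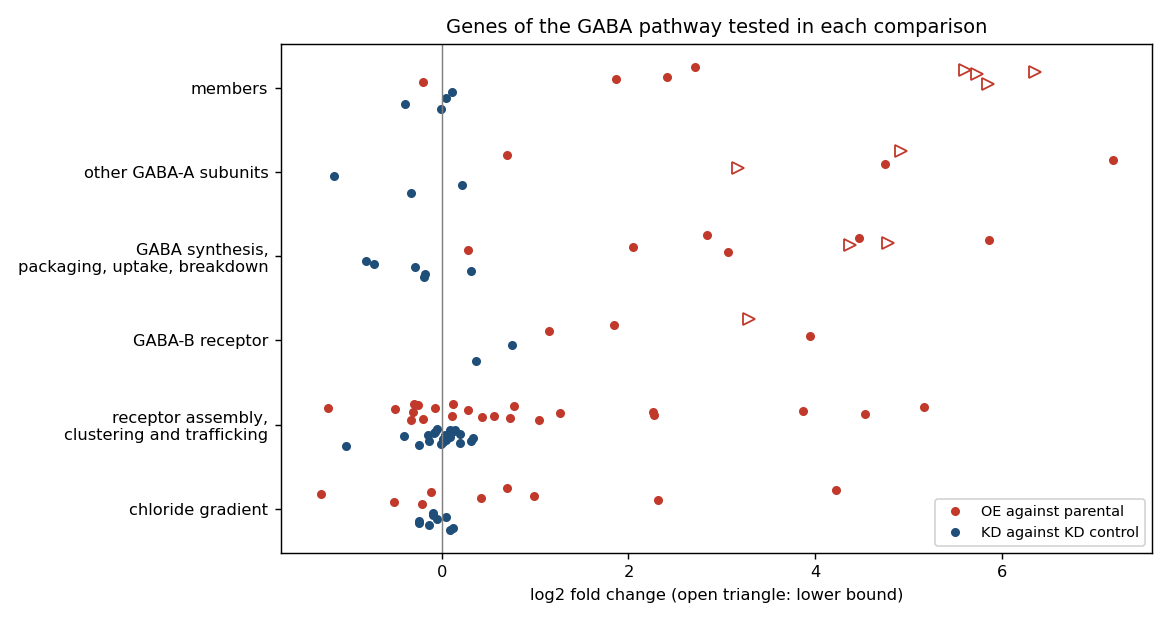
Log2 fold change of each tested gene of 6 lists (the 8 genes described here, the other GABA-A subunits, and 4 lists of the GABA pathway) in OE against parental (red) and KD against KD control (blue), with open triangles for lower bounds computed against 3 counts per library. Genes with 1 to 3 counts in parental cells are drawn at their fitted value. With genes at 0 in parental cells set to their bound, the medians in OE cells are 4.16 for the 8 genes, 4.74 for the other subunits, 3.72 for GABA synthesis and uptake, 2.57 for GABA-B, 0.36 for assembly and trafficking and 0.42 for chloride genes.

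Over the 8 libraries, the 5 genes whose pattern was most like the mean standardized profile of the 8 genes were HR (r = 0.992), MCAM (0.988), DNER (0.988), ARHGAP42 (0.987) and KLHL4 (0.985), of 13547 searched. That mean does not stand for each of the 8 genes. With GABRG1, GABRA2, GABRB2, GABRG3 and GABRQ, GABRA3 correlated at -0.891 to -0.787 and GABRB1 at -0.421 to -0.073. HR, which encodes a nuclear corepressor, had 25 and 25 counts in parental, 556 and 401 in OE, 85 and 74 in KD control and 91 and 94 in KD libraries. DNER, a Notch ligand of neurons, had 243 and 264 counts in parental and 1228 and 1014 in OE libraries. These correlations (Pearson, log2 of CPM + 0.5) are descriptions, because the points fall into 4 groups and share their libraries.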

How the data were processed

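SK-N-SH RNA was measured in 8 libraries, grouped by the titles and treatments that the labels give. The authors deposited raw counts, which are whole and not normalized. They trimmed the reads, dropped those with a Phred score below 25, mapped the rest to GRCh38 (HISAT2) and assigned them to GENCODE release 28 genes (featureCounts), as the methods state. Identifiers such as ENSG00000287918 seem to postdate that release, so that the annotation behind the table and its exon lengths is uncertain. The strand setting is not given in the sources used here. Of 60662 lines, 3 (1 gene split over several lines) were left out. GENCODE release 44 gave symbols for 60462 of the 60659 identifiers.

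Low counts were removed by filterByExpr, libraries were scaled by TMM, and groups were compared by the two-sided quasi-likelihood test of edgeR (version 4.0.16, with limma 3.58.1 in R 4.3.3), with p-values adjusted by Benjamini-Hochberg over all genes tested. The call thresholds were set after those of the methods, which name a p-value, a base mean above 20 and a 1-fold change. Here the adjusted p took the place of the p-value. The mean was that of TMM-normalized counts, and the 1-fold change was read as a log2 fold change of 1. Folds against groups with 0 counts are bounds against 3 counts per library, and counting intervals and bounds cover counting error only. TPM values were computed from the table's summed exon lengths. Each fit was checked beforehand against simulated data in which known genes had been changed. The changed genes all had ample counts, so the check did not cover genes at or near 0 in a group. The alternatives tried were DESeq2 (1.42.0), RLE or upper quartile scaling, no filter, other thresholds, 1 fit over all 8 libraries, a gene length trend, the replicate number as a block, and leaving out each library. Replicates differed by more than counting noise in every group (chi-square per degree of freedom 6.08 to 8.93).

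The rule named or counted all 8 genes and the other 11 subunits, with the called genes of each pathway list and up to 4 more. A few of the other subunits and list genes are not reported here. The members and lists were chosen with earlier results of these data known. Of the exonic 31-base sequences of each of the 8 genes, 0% to 2.77% also occur on alternate contigs of GRCh38.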

Additional observations from a re-analysis of the deposited data

How the results depend on the processing

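With 2 libraries per group, folds of the low-count genes GABRA5, GABRB1 and GABRG3 rest on few reads. The number of genes called stayed within 1.5 times of the reported one under the alternatives, with these exceptions. With a mean normalized count above 100, 2 genes were called in OE against parental, 0 in KD control against parental and 0 in the difference of the effects. With no fold threshold, 2 were called in KD control against parental, and leaving out 1 library gave 0 to 2 there. As shares of raw counts, not per length, GABRA3 made up 75.56% of subunit counts in parental, 23.4% in KD control, 27.41% in KD and 11.41% in OE cells. The replicate numbers did not pair the samples (correlations of -0.06 to 0.071), and with the replicate block 5 genes were called in OE against parental, 0 in KD, 1 in KD control against parental and 3 in the difference. In KD against KD control the log2 fold changes of GABRA3, GABRG3 and GABRQ, all near 0, changed sign under some settings, and that of GABRB1 did not. GABRA3 was at 0.0101 with the gene length trend and 0.0106 with the trend and the block, GABRG3 at -0.0014 with both, and leaving out 1 library gave -0.074 to 0.0478 for GABRA3, -0.27 to 0.31 for GABRG3 and -0.24 to 0.39 for GABRQ. In the difference of the effects GABRA5 was at 0.0074 with upper quartile normalization, at 0.0047 with the replicate block and between -1.06 and 1.96 without 1 library. The causes of these reversals were not tested.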

Other observations

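Minor subunits had counts too low for the filter. GABRP, the pi subunit known from epithelia, had 0 counts in both parental and both KD control libraries, 11 and 8 in OE libraries, and 5 and 3 in KD libraries. GABRA4, which lies head to head with GABRB1 (141 bases between the loci), had 0 counts in parental, 3 and 9 in OE, 2 and 6 in KD control and 0 and 3 in KD libraries. GABRR3 had a single count, in an OE library.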
